A study of Mus musculus with 8 samples.

Results

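The genes described here are 10 members of the ETS family of transcription factors, and they were chosen by name. They are the epithelial factors Elf3, Elf5 and Ehf, the ETV factors Etv1, Etv4, Etv5 and Etv6, the ELK factors Elk3 and Elk4, and Gabpa. A locus was taken as the gene body extended by 3 kb at either end, in the mm10 build. Together the loci held 143 of the 197916 merged open regions of the series, and all 10 genes were among the 17012 protein-coding loci tested, out of 21911. Chromatin accessibility was measured by ATAC-seq, in which a transposase inserts adapters into open DNA, in 4 sham and 4 BCAS libraries from cerebral cortex of male C57BL/6 mice. BCAS mice had bilateral carotid artery stenosis, a model of chronic cerebral hypoperfusion. At 11 weeks of age a microcoil of 0.16 mm inner diameter was placed on the right common carotid artery and one of 0.18 mm on the left, while sham mice had the arteries exposed with no coil. The tissue was studied 3 weeks after surgery. The sample labels name the right cortex, whereas the study's quality table names cortex of the whole brain, so the side is uncertain.

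ETS factors bind DNA through a conserved domain that reads a GGAA core. Elf3, Elf5 and Ehf are known for differentiation of epithelia, Etv1, Etv4 and Etv5 act downstream of growth factor and ERK signalling, and Etv6 is a repressor needed for blood stem cells. Elk3 and Elk4 are ternary complex factors that join serum response factor on DNA, and Gabpa is the DNA-binding subunit of GABP, which serves many genes for mitochondrial proteins.

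The lists held 107482 to 145102 peaks per sham library and 119660 to 160848 per BCAS library, covering 44.5 to 60.8 Mb and 48.9 to 66.3 Mb. The lists hold no read counts, so the covered length was scaled to each library's total and is given in scaled bp. Microglial markers lay higher in BCAS, with a summed covered length of 17993 to 22648 scaled bp in sham and 23016 to 25893 in BCAS. Of the 9 microglial markers all had a positive difference and 2 passed the test. The summed endothelial markers ran from 11380 to 14811 in sham and from 15524 to 17277 in BCAS, with 0 of 7 past the limma test and 2 at an unadjusted p under 0.05. Of these 7 markers 5 had a positive difference, and Flt1 had the widest gap between means, 3990 against 5830 scaled bp (adjusted p = 0.163, limma), whereas Cldn5 (-0.12) and Cdh5 (-0.10) had negative log2 differences. Summed neuronal, astrocyte, oligodendrocyte, precursor, mural and choroid plexus markers overlapped between groups. Excitatory neuron markers ran from 15945 to 17688 in sham and from 14534 to 16603 in BCAS. Inhibitory ones ran from 4479 to 5492 and from 3225 to 5153. In these lists only Folr1, of the choroid plexus, passed, higher in BCAS (adjusted p = 0.0077, limma). In bulk tissue, a change in the share of a cell type and a change in chromatin within cells cannot be told apart.

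Of the 10 loci, Etv6 alone passed the test, with more DNA under peaks in BCAS. The Etv6 gene lies at chr6:134035700-134270158 on the plus strand and spans 234.5 kb. Peaks covered 11567, 12683, 12265 and 11908 scaled bp in the sham libraries and 15124, 14212, 15706 and 14220 in the BCAS libraries. Every BCAS library lay above every sham library. The mean rose from 12110 ± 479 (SD, n = 4) to 14820 ± 732 (SD, n = 4). The log2 difference was 0.29 with a standard error of 0.06 and a 95% interval of 0.15 to 0.42, and the adjusted p was 0.0175 (limma, Benjamini-Hochberg over all loci). Over all loci, 3.15% were called higher in BCAS and 0.376% lower, against 1 and 0 of the 10 members. The call was lost without BCAS replicate 1 (adjusted p = 0.0555), without BCAS replicate 3 (adjusted p = 0.0616), with median-of-ratios scaling (0.132), with no scaling (0.417) and with read GC class as a covariate (0.0514), all by limma. The summed microglial and endothelial markers lay higher in BCAS as well, the latter mostly through Flt1, and their part in the result was not tested.

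**Figure D1:**
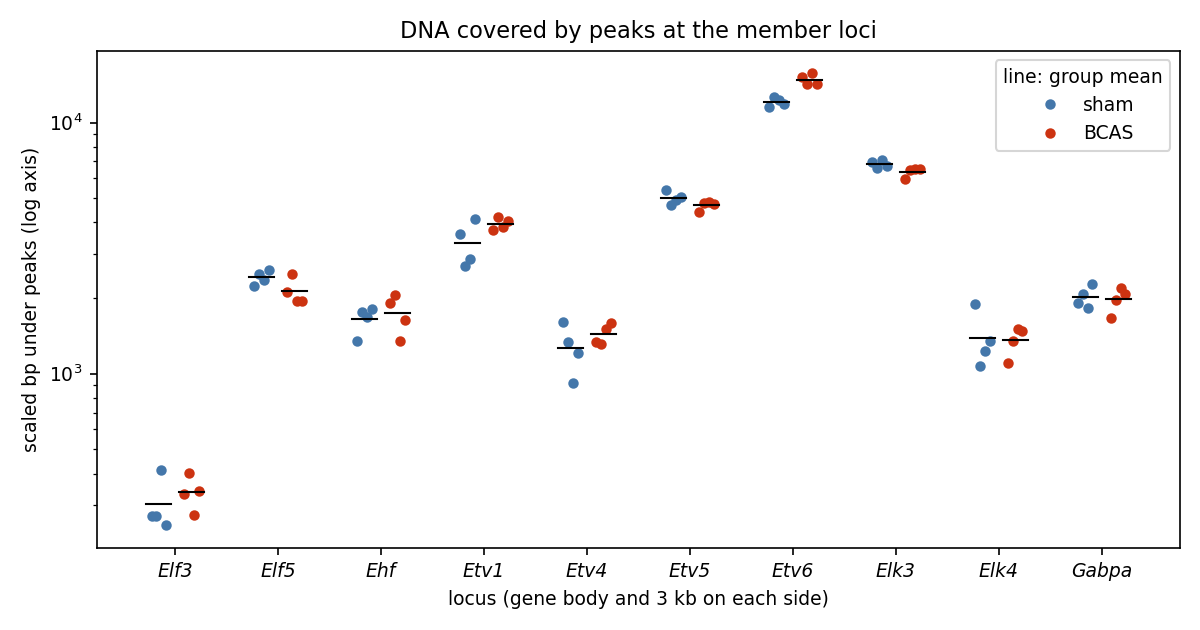
Scaled bp under peaks at each of the 10 loci on a log axis, 1 point per library, with lines at the group means. At Etv6 the 4 BCAS libraries, from 14212 to 15706, lie above the 4 sham libraries, from 11567 to 12683.

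The regions behind this value can be shown directly. The Etv6 locus held 60 merged regions, of which 59 had their summit in an intron, and 13 were open in all 8 libraries. Each sham library had a peak in 24, 29, 31 and 22 of the 60 regions, and each BCAS library in 49, 34, 40 and 29. These counts are not scaled for list length, and BCAS replicate 1, with 49, was the longest list. Intron 1 carried 3083 ± 290 scaled bp in sham and 4599 ± 534 in BCAS, with no overlap between groups. Intron 2 carried 6046 ± 437 and 6822 ± 693, and there the groups overlapped. These introns are parts of the called locus, and the share of introns without overlap over all loci was not counted. The region at the gene start was open in all 8 libraries and carried 1354 ± 160 and 1317 ± 203 (SD, n = 4 in each). When only 3 kb around the start was counted, the Etv6 difference was -0.0397 on the log2 scale (adjusted p = 0.999, limma).

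Of the 143 member regions, 4 were open in all BCAS libraries and in none of the sham libraries, and all 4 were in Etv6. Over all merged regions 1.62% showed this presence pattern, against 2.8% of the member regions. The opposite pattern was found at 1 member region, in Elk3, against 0.0945% of all regions. With 4 libraries a group these patterns are a description without a test. The sequences around the summits of these 5 regions are shown because they are the member regions that separated the groups. Each is 121 bases of the plus strand of GRCm38.p6, centred on the summit, with the ETS core GGAA or its reverse complement TTCC in capitals.
Etv6 intron 1, chr6:134115742-134115862: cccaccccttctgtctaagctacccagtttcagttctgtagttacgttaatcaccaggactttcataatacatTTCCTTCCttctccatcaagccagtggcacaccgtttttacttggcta
Etv6 intron 1, chr6:134120851-134120971: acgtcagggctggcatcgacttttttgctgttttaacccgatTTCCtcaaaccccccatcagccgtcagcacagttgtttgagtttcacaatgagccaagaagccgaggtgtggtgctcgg
Etv6 intron 2, chr6:134141924-134142044: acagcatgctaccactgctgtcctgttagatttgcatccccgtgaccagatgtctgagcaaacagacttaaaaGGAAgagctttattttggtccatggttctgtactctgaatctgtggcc
Etv6 intron 3, chr6:134230287-134230407: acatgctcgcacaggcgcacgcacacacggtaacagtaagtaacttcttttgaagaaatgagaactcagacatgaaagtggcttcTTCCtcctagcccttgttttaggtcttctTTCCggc
Elk3 intron 3, chr10:93256814-93256934: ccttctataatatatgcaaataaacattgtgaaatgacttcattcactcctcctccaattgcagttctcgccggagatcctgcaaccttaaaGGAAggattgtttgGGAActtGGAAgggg

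The summits of the 4 Etv6 regions lay 80102, 85211, 106284 and 194647 bp from the gene start. The authors' fold enrichment ran from 4.44 to 5.41 at the first, 5.00 to 6.25 at the second, 5.56 to 7.64 at the third and 3.32 to 4.66 at the fourth. A further 4 Etv6 regions were open in every BCAS and 1 sham library, and 6 in 3 BCAS and no sham libraries. The reverse was seen too, since 2 Etv6 regions were open in every sham and 1 BCAS library and 1 in 3 sham and no BCAS libraries. The shares of these looser patterns over all merged regions were not counted, so nothing particular to Etv6 can be read from them. The Elk3 region also lies within Cdk17, a kinase gene on the other strand, and its fold enrichment was 3.28, 3.07, 3.78 and 3.39 in the sham libraries.

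**Figure D2:**
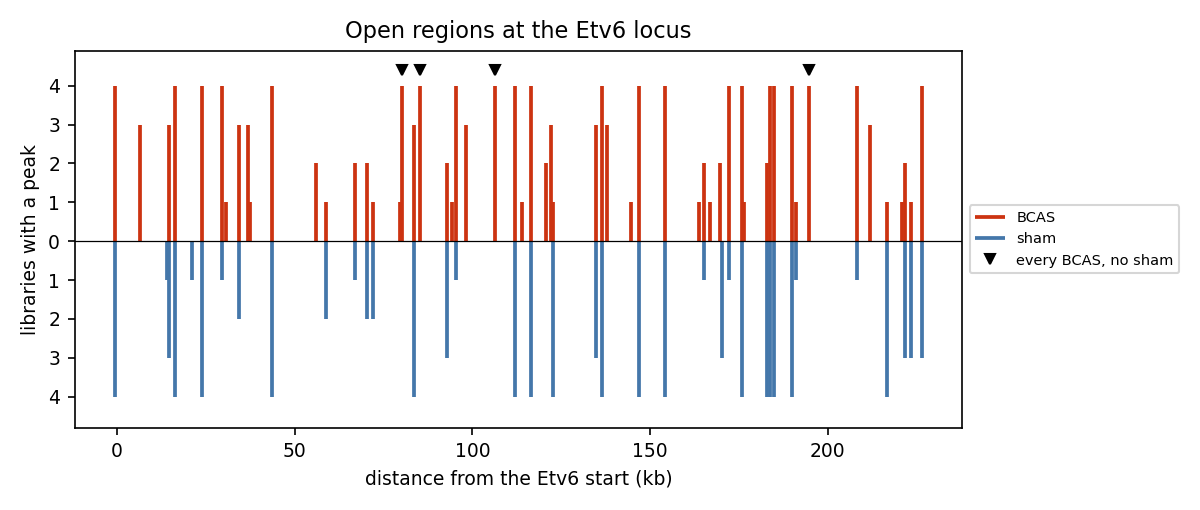
Number of BCAS (up) and sham (down) libraries with a peak at each of the 60 Etv6 regions, by distance of the summit from the gene start in kb. The 4 marked regions were open in every BCAS and no sham library.

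Regions open in all 8 libraries were compared by the rank percentile of their fold enrichment, since fold values are made within each library. Of the 52 such member regions, 0 passed the limma test and 9 had an unadjusted p under 0.05, 6 of them higher in BCAS. Over all 71712 regions, 0.74% were called higher and 0.158% lower at the adjusted threshold. The share of all regions with an unadjusted p under 0.05 was not counted, so the 9 have no share to stand beside. At an Etv6 intron 2 region 175854 bp from the start, the percentiles were 2.63, 2.85, 24.8 and 10.1 in sham and 24.2, 47.8, 53.3 and 49.7 in BCAS. The ranges overlapped by 1 library, and the difference was 33.6 points with an adjusted p of 0.0807 (limma). At another intron 2 region, 154219 bp from the start, the percentiles were 16, 17.6, 47.8 and 47.3 in sham and 61.4, 59.3, 74.8 and 70.8 in BCAS. The groups did not overlap, and the difference was 34.4 points with an adjusted p of 0.136 (limma). The share of all 71712 regions whose ranks did not overlap was not counted. When ranked by -log10 p instead, 3 member regions passed, these 2 and the Etv4 start region, while over all 71712 regions the called shares also grew, to 2.38% higher and 0.6% lower.

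**Figure D3:**
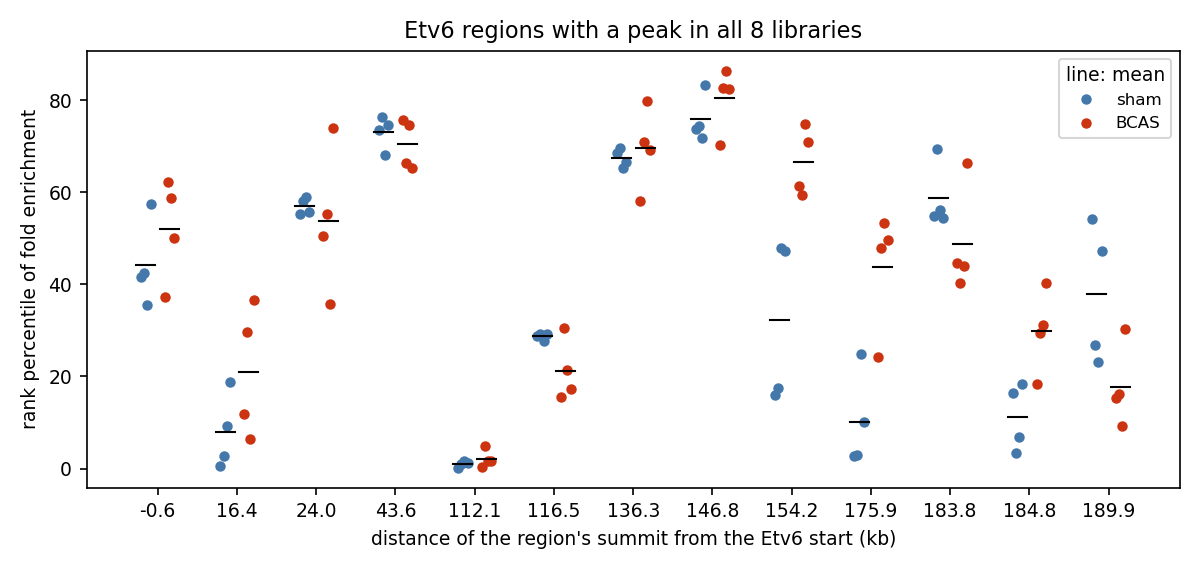
Rank percentile of fold enrichment for the 13 Etv6 regions open in all 8 libraries, by distance of the summit from the start, 1 point per library with lines at the means. The regions 154219 and 175854 bp from the start show the widest gaps between groups.

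The other ETV factors gave no call. Etv1, on chromosome 12, carried 3589, 2677, 2858 and 4135 scaled bp in sham and 3738, 4217, 3824 and 4065 in BCAS. The sham libraries spread over a wider range that overlapped BCAS, and the log2 difference of 0.26 (SE 0.12) had an adjusted p of 0.323 (limma). An Etv1 intron 5 region was open in every BCAS and 1 sham library. Etv4, on chromosome 11, carried 1613, 1339, 919 and 1204 in sham and 1333, 1316, 1502 and 1596 in BCAS, with a log2 difference of 0.17 (SE 0.14). Etv5, on chromosome 16, carried 5399, 4689, 4896 and 5074 in sham and 4403, 4775, 4828 and 4729 in BCAS, with a log2 difference of -0.09 (SE 0.09). Its 18 regions included 9 open in all 8 libraries, and its mean number of open regions was 11.25 in both groups.

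The epithelial factors had peaks in cortex in both groups. Elf3, on chromosome 1, held 1 region open in all 8 libraries, 672 bp upstream of its start. It carried 271, 271, 415 and 249 scaled bp in sham and 333, 403, 273 and 340 in BCAS, with a log2 difference of 0.11 (SE 0.22). An antisense gene, Gm26642, spans the whole Elf3 gene. Elf5, on chromosome 2, had no peak at its first start but a region open in all 8 libraries 296 bp from a later annotated start. It carried 2241, 2490, 2368 and 2579 in sham and 2119, 2489, 1952 and 1938 in BCAS, with a log2 difference of -0.18 (SE 0.11) and overlapping groups. Ehf, also on chromosome 2, was the only member with no region open in all 8 libraries within 1 kb of an annotated start, which the other 9 had. It carried 1348, 1753, 1674 and 1811 in sham and 1912, 2048, 1352 and 1640 in BCAS, with a log2 difference of 0.06 (SE 0.14). Of the 9 epithelial markers, 4 were at 0 in every library and 4 could be tested. Of these, 1 passed the limma test, Cdh1, the epithelial cadherin, higher in BCAS. The summed epithelial markers ran from 2505 to 3200 scaled bp in sham and from 3234 to 4221 in BCAS. Of the tested markers Cdh1 had the widest gap between means, 450.5 against 1045 scaled bp. At Krt8, Esrp1 and Grhl2 the groups overlapped (adjusted p = 0.988, 0.963 and 0.577, limma). The part of these markers in the values above was not tested.

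The ELK factors and Gabpa gave no call. Elk3, on chromosome 10, carried 6939, 6586, 7092 and 6731 scaled bp in sham and 5942, 6444, 6523 and 6555 in BCAS. Every BCAS library lay below every sham library, yet the log2 difference was -0.10 (SE 0.08) with an adjusted p of 0.642 (limma). Cdk17 overlaps the end of the Elk3 gene, so the locus value is not of Elk3 alone. Over all loci the groups did not overlap at 6.04% with BCAS above and at 2.47% with BCAS below, against 1 member each way, Etv6 and Elk3. Elk4, on chromosome 1, carried 1888, 1072, 1234 and 1349 in sham and 1098, 1349, 1512 and 1479 in BCAS, with a log2 difference of -0.0073 (SE 0.15). Mfsd4a, on the other strand, and Gm29103, on the same strand, also overlap the Elk4 locus. Gabpa, on chromosome 16, carried 1915, 2077, 1819 and 2265 in sham and 1665, 1972, 2201 and 2071 in BCAS, with a log2 difference of -0.03 (SE 0.12). Its start region is shared with Atp5j, a subunit gene of ATP synthase on the other strand, so the starts of both genes cannot be told apart there.

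Apart from Etv6 and Etv1, the adjusted p of the members ran from 0.516 at Elf5 to 0.992 at Elk4 (limma). Across the members 5 of 10 differences were positive with a median of 0.03, beside 8569 of 17012 and a median of 0.0014 over all loci. Of the other ETS genes, 14 of 16 were tested, 13 had a positive difference and the median was 0.21. Elf1, Fli1 and Elf4, which serve blood cells and, for Fli1, endothelium, rose by 0.79, 0.69 and 0.55 on the log2 scale (adjusted p = 0.000361, 0.00236 and 0.0066, limma). Of the partner genes 0 of 9 passed the limma test, as did 0 of 9 ERK feedback genes, 0 of 8 ELK and SRF targets and 0 of 6 GABP targets. At an unadjusted p under 0.05 these counts were 1, 2, 0 and 1, and the share of all loci at that level was not counted. At the adjusted threshold 3.15% of all loci were called higher and 0.376% lower. Counts of 0 in lists this short therefore say little about these genes.

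**Figure D4:**
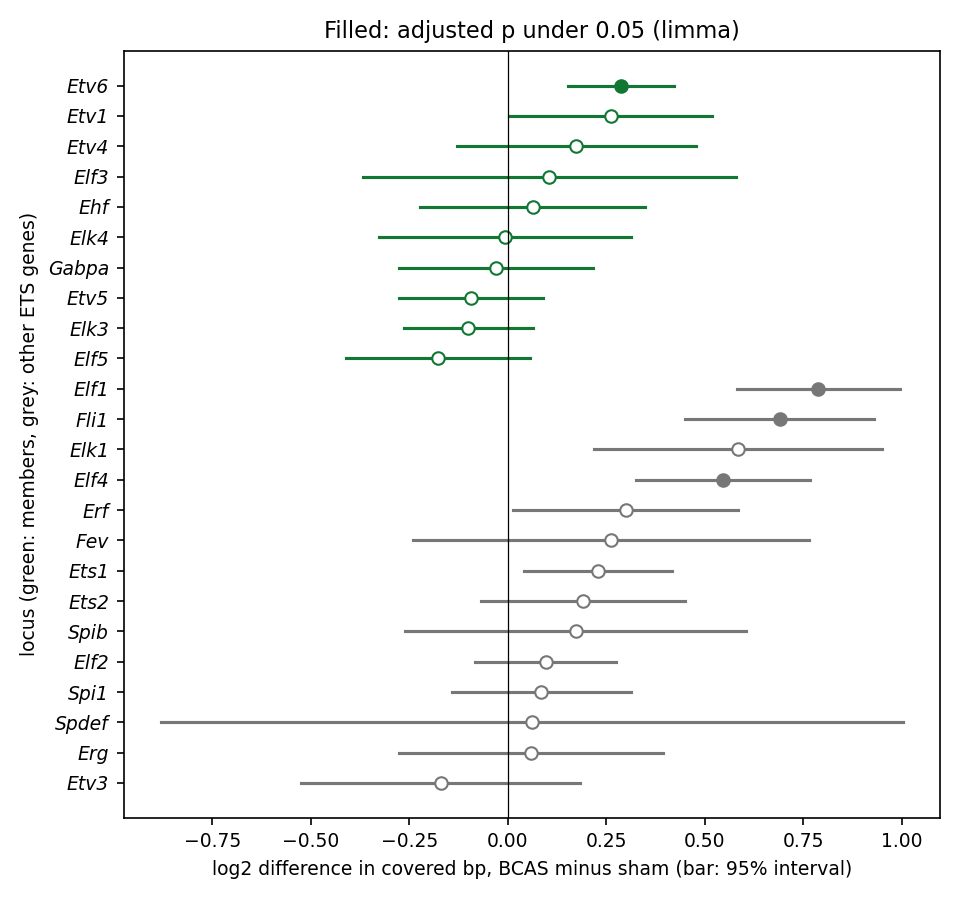
Log2 difference in covered bp, BCAS minus sham, with 95% intervals, for the 10 members (green) and the 14 other ETS genes tested (grey). Filled points passed the limma test, namely Etv6 among the members and Elf1, Fli1 and Elf4 among the others.

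The sites these factors could read were counted as exact words within 100 bp of peak summits, on both strands. The words were ACCGGAAGT for the ETV, ELK and GABPA type, CCCGGAAGT for the ELF3, ELF5 and EHF type and GAGGAAGT for the PU.1 type. The first 2 share their last 8 letters, and all 3 share GGAAGT. ACCGGAAGT was found at 0.275%, 0.226%, 0.214% and 0.257% of sham peaks and at 0.213%, 0.258%, 0.266% and 0.274% of BCAS peaks. The groups overlapped (exact permutation p = 0.743, two-sided). With lists cut to equal length they did not, at 0.266% to 0.277% of sham and 0.287% to 0.298% of BCAS peaks (exact permutation p = 0.0286, adjusted 0.0714). CCCGGAAGT was at 0.285% ± 0.028 of sham and 0.281% ± 0.024 of BCAS peaks (SD, n = 4, exact permutation p = 0.886). GAGGAAGT was at 2.09% ± 0.175 and 3.07% ± 0.057 (SD, n = 4, exact permutation p = 0.0286, adjusted over 5 words 0.143). The smallest p that 4 against 4 libraries allow is 0.0286.

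In peaks more than 3 kb from a gene start, every BCAS library lay above every sham library for all 3 words. There ACCGGAAGT was at 0.0529% ± 0.0061 of sham and 0.0761% ± 0.0087 of BCAS peaks, and CCCGGAAGT at 0.0654% ± 0.007 and 0.0774% ± 0.0024 (SD, n = 4). Each had an exact permutation p of 0.0286, adjusted 0.0476 over the 5 words. The adjusted value fell under 0.05 because 3 words that share GGAAGT were tied at the smallest possible p. Over all peaks GAGGAAGT was alone at that exact permutation p, and its adjusted value was 0.143. These shares rest on 46 to 88 peaks per library for ACCGGAAGT and 52 to 107 for CCCGGAAGT. The control words ACGCGAAGT and CGCCGAAGT had exact permutation p of 0.343 and 0.743 in the same peaks. They were found at only 3 to 7 and 5 to 11 peaks per library. Such counts are too few to show whether the control words shifted as the other words did. Within 3 kb of a start, a class added after the distal shares were seen, ACCGGAAGT was at 1.20% of sham and 1.15% of BCAS peaks (exact permutation p = 0.4) and CCCGGAAGT at 1.39% and 1.32% (exact permutation p = 0.143). GAGGAAGT was at 1.97% and 2.61% there, with every BCAS library above every sham library (exact permutation p = 0.0286, adjusted 0.143).

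**Figure D5:**
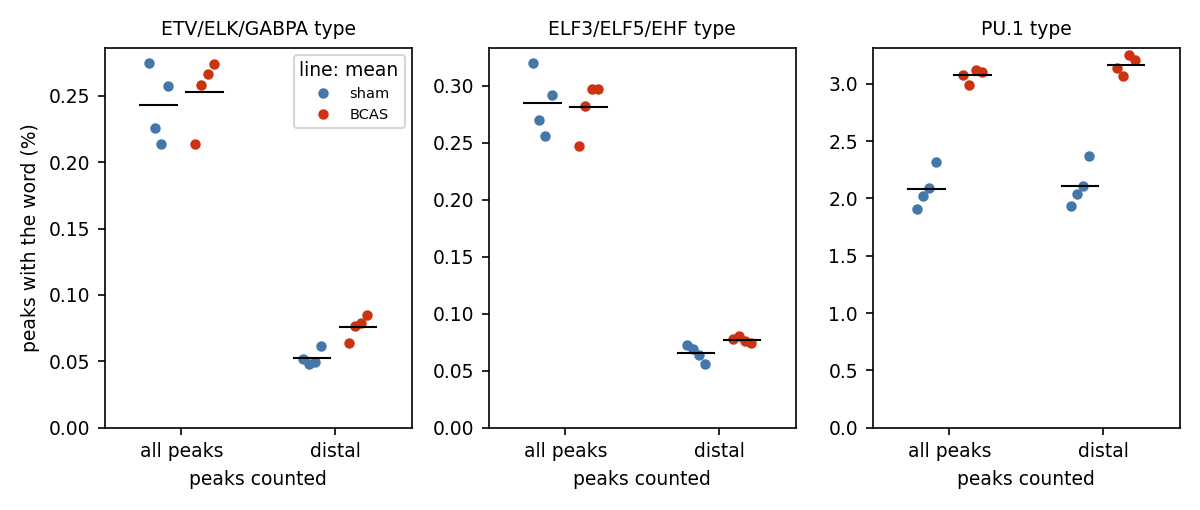
Share of peaks with each word within 100 bp of the summit, in percent, for all peaks and for peaks more than 3 kb from a gene start, 1 point per library with lines at the means. In distal peaks the BCAS libraries lie above the sham libraries for each word.

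None of the 143 member regions held ACCGGAAGT, which only 0.329% of all merged regions held, so that a count of 0 says nothing of the members. CCCGGAAGT was found in an Etv6 intron 2 region open in 3 BCAS libraries and no sham library, and at the Elk4 start, against 0.357% of all merged regions. RefSeq promoter windows, 250 bases before to 50 after a start, matched 8 of the 10 members in 13 windows. Only an Elk4 window held CCCGGAAGT, against 1.22% of all 32851 promoter windows, and none held ACCGGAAGT, against 1.1%. GAGGAAGT was in an Elk4 and the Gabpa window, against 3.2%. Counted over whole merged regions, it was also in open regions of Elf5, Etv1, Etv6, Elk3, Elk4 and Gabpa. Within 100 bp of a summit it was found only at Elf5, Elk3 and Gabpa. Among the whole regions with it was the Etv6 region 106284 bp from the start, open in every BCAS and no sham library. There the word did not lie within 100 bp of the summit. The other Etv6 regions of that pattern did not hold it. Of all merged regions 4.78% held GAGGAAGT, and of those open in every BCAS and no sham library 18.3%. Such a match is a description of letters and shows no binding.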

How the data were processed

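ATAC-seq peak lists of 4 sham and 4 BCAS cortex libraries were used. Per the labels and the study's methods, the authors aligned paired reads to mm10 with Bowtie2 2.3.4.3, removed duplicates, processed alignments with SAMtools 1.9 and ran MACS2 to call peaks. The deposited lists give for each peak a score, a fold enrichment (ratio), -log10 p and q values and a summit. There is 1 list per library. They hold no read counts, so read depth is not given by them, and a region without a peak may still be open. The members and gene lists were chosen with earlier results of these data known. Nothing says more of the replicates than that the study used 8 mice for this assay.

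Peaks on the 21 main chromosomes were used. Covered bp per locus was scaled to the total covered length and tested as log2(scaled bp + 200) in limma 3.58.1 (R 4.3.3, trended eBayes) over protein-coding loci with a mean of at least 200 bp, so fold changes of small loci are understated. Peaks overlapping by 1 bp were merged into regions. Rank percentiles were tested in limma, and word shares by exact permutation. Adjusted p-values are Benjamini-Hochberg with a threshold of 0.05. Named genes were all members, genes in their loci and up to 6 genes past the test per list. Genes in the loci that are not described above were Cat at Elf5 and Dhx8 at Etv4. At Etv6 they were Gm43982, Gm43984, Gm17088, Gm17089 and 1700051K13Rik. Read GC class came from the study's quality table and holds 3 sham and 1 BCAS library in the higher class. Scripts used Python 3.11.15 and were tested on simulated data. Alternatives are given in the closing section.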

Additional observations from a re-analysis of the deposited data

Results flagged for a closer look

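At Elf3 the sham libraries carried 271, 271, 415 and 249 scaled bp, and the value of 415 lay far from the other sham libraries, with a gap of 0.867 of the group's range. That library, sham replicate 3, had a second Elf3 region that no other library had, of 226 bp before scaling. At the region open in all 8 libraries the sham libraries had 230, 281, 251 and 210 bp before scaling. The value of 415 thus stood out through the second region. This was 1 of 30 groups of values examined, and chance gives such a gap in about 1 group in 20.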

How the results depend on the processing

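All values are BCAS minus sham. The Etv6 log2 difference stayed positive except within 3 kb around the start (-0.0397), and its call was lost there, with no scaling (0.37), with median-of-ratios scaling (0.27) and with read GC class as a covariate (0.30), so 0 members were called under those 4 settings. Leaving out 1 library gave an Etv6 range of 0.26 to 0.31 and 0 to 1 members called, with the call lost without BCAS replicate 1 or 3. Within the higher GC class (3 sham, 1 BCAS) the Etv6 difference of means was 0.31 and within the lower (1 sham, 3 BCAS) 0.30. With a replicate block Etv6 was 0.29 (adjusted p = 0.00949, limma) and 1 member was called. Same-numbered libraries correlated at -0.16, -0.011, -0.097 and 0.14. With 4 libraries a group, these values cannot show whether the replicate numbers pair the mice.

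Uncalled members moved or changed sign in places. Elf3 went from 0.11 to 0.48 with 10 kb at either end (adjusted p = 0.0588, limma), and Etv1 from 0.26 to 0.13 with read GC class. Within 3 kb around the start Etv4 was -0.0929 and Etv5 0.0785, and Etv4 was -0.00259 at -log10 q of at least 5. Elk4 was 0.062 at that q, 0.10 with lists of equal length, 0.0705 with no scaling, 0.0947 without flanks and 0.093 with number of peaks as a covariate. Gabpa was 0.0504 with no scaling, 0.0822 with 10 kb at either end and 0.0196 with number of peaks. Leaving out 1 library gave 0.05 to 0.21 at Elf3, 0.17 to 0.37 at Etv1, 0.05 to 0.28 at Etv4, -0.0198 to 0.16 at Ehf, -0.10 to 0.13 at Elk4 and -0.0788 to 0.0426 at Gabpa. Regions of BCAS alone numbered 4 to 8 and regions of sham alone 1 to 4 when 1 library was left out, while the shares over all regions ran from 1.68% to 2.35% and from 0.115% to 0.604%. The sham-alone count was 0 at -log10 q of at least 5 (0.127% of all regions) and 2 with lists of equal length (0.396%). Ranking by -log10 p called 3 member regions, with 1709 higher and 430 lower over all regions against 531 and 113 before. With read GC class or the replicate block, 0 of all 71712 regions were called by rank in limma, so the count of 0 members there says nothing.

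For the words, in percentage points, distal peaks gave 0.0231 for ACCGGAAGT, 0.012 for CCCGGAAGT and 1.05 for GAGGAAGT. All 3 were past the threshold, through their tie at the smallest exact p. Peaks near starts gave -0.0483 for ACCGGAAGT, -0.0713 for CCCGGAAGT, 0.64 for GAGGAAGT and 0.00112 for CGCCGAAGT. With lists of equal length ACCGGAAGT was 0.0219, above its 0.00968 over all peaks, and its groups did not overlap. CCCGGAAGT was 4.94e-05 in a 50 bp window and 0.013 with lists of equal length, where CGCCGAAGT was 0.000387 and 0.00186. Leaving out 1 library gave -4.99e-05 to 0.0228 for ACCGGAAGT, -0.0131 to 0.0084 for CCCGGAAGT and -0.00103 to 0.000734 for CGCCGAAGT. With 1 library left out the smallest exact p is 0.0571, so no call was possible. The causes of these changes were not tested. Peak lists hold no depth, which limits every absence to the caller's threshold.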
